A study of Mus musculus with 4 samples.

Results

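The genes described here are the cytochrome P450 genes of the Cyp1 family (Cyp1a1, Cyp1a2 and Cyp1b1) and 5 genes of the aryl hydrocarbon receptor pathway (Ahr, Arnt, Ahrr, Tiparp and Aldh3a1), in livers of mice that lack the Cyp3a cluster and of wild type mice. They were taken as every non-control probe whose RefSeq transcript belongs to one of these 8 genes, which gave 13 of the array's 39429 probes and 8 of the 21149 genes that could be named. Total RNA from 2 livers of Cyp3a-cluster knockout mice (Cyp3a-/-) and 2 livers of wild type mice was labelled with Cy3, and each liver was hybridised to 1 Agilent array. Every mouse was a different animal per the study's design text. Strain, age, sex and treatment are not given in the sources used here. The Cyp3a cluster encodes drug- and steroid-metabolising P450s, and the comparison asks which liver transcripts differ without them.

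The aryl hydrocarbon receptor (AhR) is a transcription factor of the bHLH-PAS family that waits in the cytosol with HSP90 chaperones until it binds a ligand, such as dioxin, a polycyclic aromatic hydrocarbon or a tryptophan derivative. It then enters the nucleus, pairs with ARNT and binds DNA elements with the core GCGTG, which switches on Cyp1a1, Cyp1a2, Cyp1b1, Tiparp, Ahrr and Aldh3a1. Hepatocytes express Cyp1a2 without an added ligand, mainly around the central vein, whereas Cyp1a1 is low in unexposed liver and is the textbook readout of AhR activation.

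Promoter sequences of 6 of the 8 genes were found in the RefSeq table (GRCm38.p6), and not of Ahr or Aldh3a1. The 250 bases before the start sites of Cyp1a1 and Cyp1a2 are shown because these 2 genes, neighbours on chromosome 9 and on opposite strands, lay on opposite sides of the other livers in 1 Cyp3a-/- liver (described below). Each sequence runs 5′ to 3′ on the gene's strand, and capitals mark GCGTG and TATAAA, searched on both strands.
Cyp1a1, chr9:57697363-57697612, + strand: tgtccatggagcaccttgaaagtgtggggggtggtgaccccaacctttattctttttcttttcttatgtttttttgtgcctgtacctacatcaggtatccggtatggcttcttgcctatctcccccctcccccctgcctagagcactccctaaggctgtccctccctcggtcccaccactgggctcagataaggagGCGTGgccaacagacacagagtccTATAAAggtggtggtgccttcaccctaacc
Cyp1a2, chr9:57683656-57683905, - strand: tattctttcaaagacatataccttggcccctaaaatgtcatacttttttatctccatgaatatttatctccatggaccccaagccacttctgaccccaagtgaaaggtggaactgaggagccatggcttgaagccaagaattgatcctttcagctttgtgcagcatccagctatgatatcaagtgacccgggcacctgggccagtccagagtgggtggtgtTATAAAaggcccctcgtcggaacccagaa

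The Cyp1a1 window holds 1 GCGTG, beginning 54 bases before the start, and 1 TATAAA beginning 30 bases before it. The Cyp1a2 window holds 1 TATAAA, beginning 29 bases before the start, and no GCGTG. Over the 32851 promoters of the table, 28.2% of windows of this length hold GCGTG on either strand and 12.4% hold TATAAA. The letters GCGTG were found in 5 of the 6 member windows, the one without being that of Cyp1a2. Bases around the 5 letters were not scored, and sequence further from the start sites was not searched. The other matches are shown with 13 bases on each side, with capitals on GCGTG or on its reverse complement.
Ahrr, chr13:74292421-74292451, - strand: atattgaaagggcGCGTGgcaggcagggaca
Ahrr, chr13:74292396-74292426, - strand: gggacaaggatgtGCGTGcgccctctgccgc
Ahrr, chr13:74292341-74292371, - strand: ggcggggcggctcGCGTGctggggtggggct
Tiparp, chr3:65528264-65528294, + strand: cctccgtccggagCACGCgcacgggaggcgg
Cyp1b1, chr17:79715120-79715150, - strand: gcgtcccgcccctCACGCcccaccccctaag
Arnt, chr3:95434348-95434378, + strand: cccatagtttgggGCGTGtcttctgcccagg
Ahrr, the receptor's repressor, thus has 3 of these matches in its window, beginning 107, 82 and 27 bases before the start. A match describes the letters of a window and was not tied to any binding measurement. Neither a match nor its absence says whether AhR acts on the gene.

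The genotype of each liver was checked with Cyp3a11, the main Cyp3a transcript of mouse liver. Levels here and below are log2 signals minus the 75th percentile of their own array. Cyp3a11 stood at -6.98 and -6.93 in Cyp3a-/- livers, against 7.94 and 8.09 in wild type livers. Both Cyp3a-/- readings fell short of the software's background call, so the transcript was at least 7204-fold lower (limma adjusted p = 1.4e-05). The share of probes well above background ranged from 54.4% to 56.5%, and all 9 hepatocyte markers were so on all 4 arrays. Both wild type arrays shared a slide while the Cyp3a-/- arrays lay on 2 other slides. Precision is limited by there being 2 arrays for each genotype, and an exact permutation test of 2 against 2 cannot give a 2-sided p below 0.333. A gene entered the limma test when both arrays of either genotype (or of both) read its probe well above background. That let in 6 of the 8 genes and 17406 genes or other transcripts in all.

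No tested gene of the 8 passed the threshold of an adjusted p under 0.05. With limma, 0 of 6 were called and 0 of 6 had an unadjusted p under 0.05, where 0.276% of all features were called and 10.0% had an unadjusted p under 0.05. The median log2 fold change, Cyp3a-/- minus wild type, was 0.25 over the 6 genes and 0.01 over all features. Cyp3a-/- and wild type values were fully separate for 2 of the 6, Cyp1a1 and Ahr, against 42.8% of all features. Cyp1b1 and Ahrr did not pass the filter on dim probes and stand outside these counts. Cyp1a1 passed it only through the Cyp3a-/- livers.

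**Figure D1:**
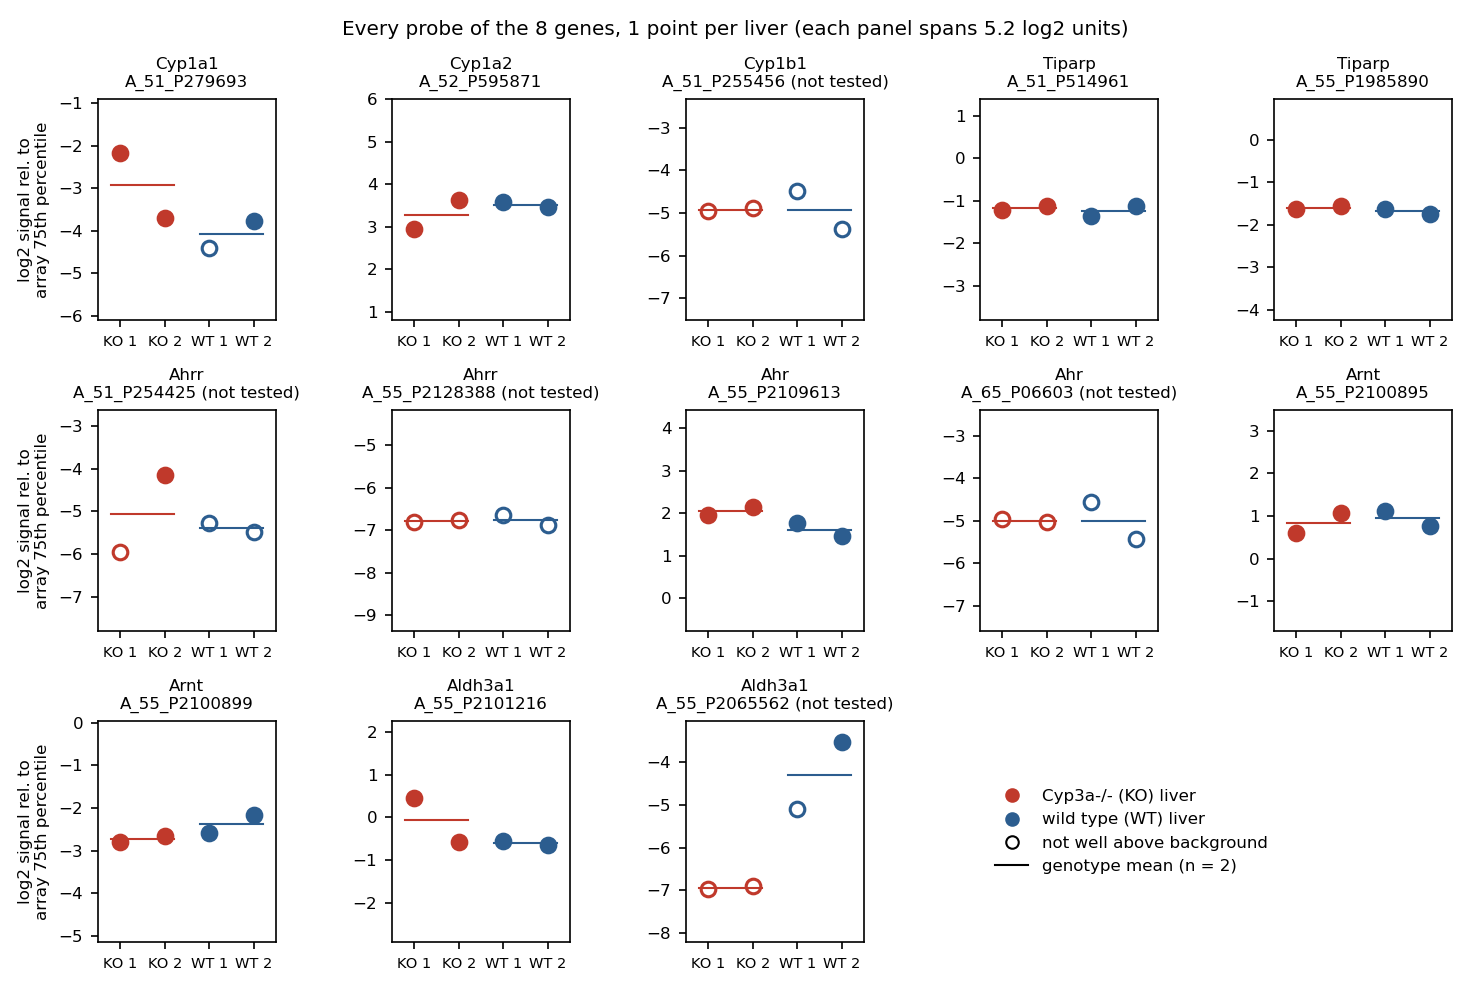
Log2 signal minus the 75th percentile of each array (vertical axis) of all 13 probes of the 8 genes, with 1 point per liver, Cyp3a-/- (KO, red) left of wild type (WT, blue). Horizontal lines are means of 2 livers, and open points were not well above background. Cyp1a1 and the brighter Aldh3a1 probe are highest in KO 1, where Cyp1a2 is lowest.

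Cyp1a1, the P450 that oxidises polycyclic aromatic hydrocarbons, was dim in all 4 livers. Its log2 signal was -2.16 and -3.69 in Cyp3a-/- livers 1 and 2, against -4.39 and -3.76 in wild type livers 1 and 2. Liver 1 of the Cyp3a-/- pair stood alone: Cyp3a-/- 2 lay only just above wild type 2. On the unscaled processed intensity these 2 livers changed places, with 70.1 and 23.9 in Cyp3a-/- livers and 14.8 and 25.9 in wild type livers. The probe was well above background in both Cyp3a-/- livers and in 1 of the 2 wild type livers. The lowest signal called well above background was between 10.8 and 12.4 on these arrays.

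The fitted difference in Cyp1a1 was 1.15 ± 0.53 (log2, SE; adjusted p = 0.553), or 2.22-fold with a 95% confidence interval of 0.896 to 5.52. The livers of the Cyp3a-/- genotype differed from each other by 2.88-fold, more than the genotypes did. Only 1.37% of all features differed more between the Cyp3a-/- livers. Without Cyp3a-/- 1 the difference was 0.39 (adjusted p = 0.813), and without Cyp3a-/- 2 it was 1.92 (adjusted p = 0.036), so the Cyp1a1 value rests on Cyp3a-/- 1. With normexp background correction, which added an offset of 50 to every signal, it was 0.38 (adjusted p = 0.629). The probe's processed intensities were 14.8 to 70.1, and an offset of that size shrinks folds of dim probes. With arrays scaled to the median probe it passed at 1.18 (adjusted p = 0.0090), in a fit that gave every gene the same variance.

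Dim features as a class also ran higher in Cyp3a-/- 1 than in Cyp3a-/- 2, and higher in wild type 1 than in wild type 2. Among 2046 features with a mean log2 signal between -4 and -3, the band that holds Cyp1a1, the median of Cyp3a-/- 1 minus Cyp3a-/- 2 was 0.14, with a 95th percentile of 1.25. Among 1069 features between 3 and 4, the band that holds Cyp1a2, that median was -0.11 and the 95th percentile 0.60. For wild type 1 minus wild type 2 the medians of these bands were 0.11 and -0.04. The part of signal level in the Cyp1a1 value was not tested.

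Cyp1a2, the hepatocyte P450 that metabolises caffeine and aromatic amines, was bright in every liver. Its log2 signal was 2.95 and 3.62 in Cyp3a-/- livers 1 and 2, against 3.58 and 3.46 in wild type livers. Cyp3a-/- 1 was the lowest of the 4 and Cyp3a-/- 2 the highest, so the genotypes overlapped. The difference was -0.23 ± 0.27 (log2, SE; adjusted p = 0.795), or 0.851-fold with a 95% confidence interval of 0.535 to 1.35. Without Cyp3a-/- 1 it turned to 0.11 (adjusted p = 0.935) and without Cyp3a-/- 2 it stood at -0.57 (adjusted p = 0.254).

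Pericentral genes, the class to which Cyp1a2 belongs, were also mostly lower in Cyp3a-/- 1 than in Cyp3a-/- 2. This held for 13 of 15 measured genes, with a median log2 difference of -0.31, and for 11 of 13 periportal genes, with a median of -0.24. Bright features as a class also ran lower in Cyp3a-/- 1 than in Cyp3a-/- 2. In bands of 1 log2 unit from 2 to 8, the median over all features lay between -0.13 and -0.08. The part of signal level in these counts was not tested, and no share over all features was counted beside them. Between genotypes, 0 of 15 pericentral genes were called by limma (5 at an unadjusted p under 0.05), with 9 above 0, 6 below and a median log2 fold change of 0.24. The largest values were those of the amino acid transporter gene Slc1a4 at 1.15 ± 0.27 (adjusted p = 0.277), ornithine aminotransferase (Oat) at 1.04 ± 0.29 (adjusted p = 0.344) and the retinal dehydrogenase Aldh1a1 at 0.72 ± 0.20 (adjusted p = 0.338). Named after their values were seen, the transcription factor gene Tbx3 stood at -0.68 ± 0.18 (adjusted p = 0.323), and the pericentral markers Glul and Cyp2e1 at 0.27 ± 0.22 and 0.12 ± 0.19. The summed linear signal of the list, in units of the array's 75th percentile, was 1077 and 1284 in Cyp3a-/- livers and 945 and 931 in wild type livers. Most of that sum came from Cyp2e1 and Aldh1a1. Cyp2e1 had log2 signals of 9.06 and 9.27 in Cyp3a-/- livers and 9.11 and 8.98 in wild type livers. Aldh1a1 had 8.14 and 8.33 in Cyp3a-/- livers and 7.38 and 7.65 in wild type livers. Of the periportal genes 0 of 13 were called (0 at an unadjusted p under 0.05; median 0.10), with Arg1 of the urea cycle at 0.41 ± 0.22, Pck1 of gluconeogenesis at 0.40 ± 0.23 and Cps1 of the urea cycle at 0.38 ± 0.19. In bulk liver, fewer cells of a zone and less RNA per cell cannot be told apart.

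Cyp1b1, a P450 found mostly outside hepatocytes that also oxidises oestradiol, did not clear the background call in any liver. Its log2 signal was -4.96 and -4.89 in Cyp3a-/- livers, against -4.48 and -5.37 in wild type livers. Both Cyp3a-/- values lay between the wild type ones. No fold is given for a gene below background in both genotypes. The stellate cell list, whose cells are a known site of Cyp1b1, had 11 of 11 markers measured and was lowest in Cyp3a-/- 1 for 9 of them. No share over all features was counted beside that. Its summed signal was 38.4 and 41.7 in Cyp3a-/- livers and 46.6 and 42.3 in wild type livers, with 0 of 11 called (0 at an unadjusted p under 0.05; median -0.16). Most of that sum came from 1 gene, the proteoglycan gene Dcn, with log2 signals of 5.08 and 5.18 in Cyp3a-/- livers and 5.30 and 5.19 in wild type livers.

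Aldh3a1, an aldehyde dehydrogenase of the AhR gene battery, has 2 probes, of which 1 could be tested. The brighter probe (A_55_P2101216) had log2 signals of 0.45 and -0.59 in Cyp3a-/- livers, against -0.55 and -0.66 in wild type livers. Cyp3a-/- 1 stood 2.06-fold above Cyp3a-/- 2, which lay between the wild type livers. The difference was 0.54 ± 0.36 (log2, SE; adjusted p = 0.660), with a 95% confidence interval of the fold from 0.780 to 2.70. It was 0.01 without Cyp3a-/- 1 (adjusted p = 0.994) and stood at 1.06 without Cyp3a-/- 2 (adjusted p = 0.070).

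The other Aldh3a1 probe (A_55_P2065562) had processed intensities of 2.49 and 2.56 in Cyp3a-/- livers, against 9.19 and 30.6 in wild type livers. It was well above background in wild type 2 alone and so was not tested. With 3 of 4 readings below the background call, no direction or fold is given for it. Which transcripts of the gene each probe meets is not given in the sources used here.

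**Figure D2:**
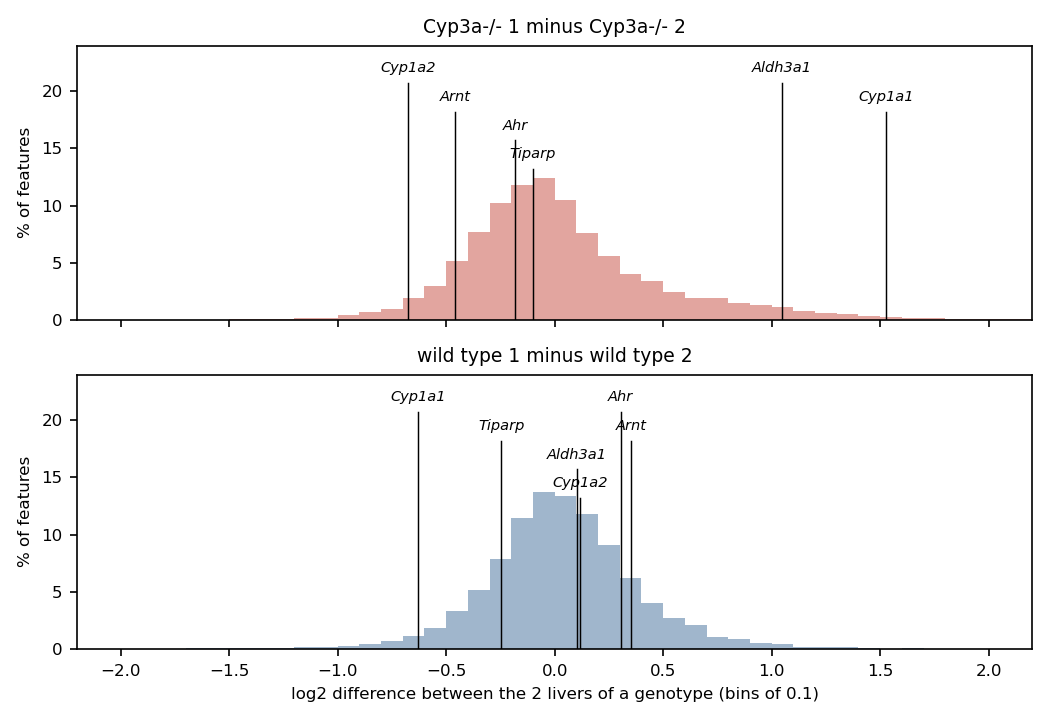
Distribution over 17406 features of the log2 difference between the 2 livers of a genotype (horizontal axis, bins of 0.1; vertical axis, percent of features), with the 6 tested genes marked by lines. Between the Cyp3a-/- livers (top) Cyp1a1 lies at 1.53 and Aldh3a1 at 1.05, and Cyp1a2 at -0.68. Between the wild type livers (bottom) the 6 genes lie from -0.63 to 0.35. The Cyp3a-/- arrays lay on 2 slides, and the wild type arrays shared a slide.

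The livers of one genotype thus differed most for Cyp1a1, Aldh3a1 and Cyp1a2. Over all features the median absolute log2 difference was 0.25 between the Cyp3a-/- livers and 0.20 between the wild type livers. The Cyp3a-/- arrays lay on 2 slides and the wild type arrays shared a slide. Liver and slide thus cannot be told apart in the differences between the Cyp3a-/- livers. Cyp1a1 differed by 1.53 between the Cyp3a-/- livers and Aldh3a1 by 1.05, a size that 4.78% of features exceeded. Cyp1a2 differed by -0.68, which 13.1% exceeded in size, and Arnt by -0.46, which 24.7% exceeded. With 1 liver on each side these differences have no test.

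Ahr, the receptor itself, was separate by genotype on its brighter probe, on both the scaled and the unscaled signal. That probe had log2 signals of 1.95 and 2.14 in Cyp3a-/- livers, against 1.76 and 1.46 in wild type livers. Both Cyp3a-/- livers lay above both wild type livers. The difference was 0.44 ± 0.20 (log2, SE; adjusted p = 0.558), or 1.35-fold with a 95% confidence interval of 0.956 to 1.92. Leaving out any 1 liver kept it above 0, between 0.28 and 0.59, and none of these fits called it. The gene's other probe cleared the background call on none of the 4 arrays.

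Arnt, the partner with which AhR and the hypoxia factors bind DNA, overlapped between genotypes on its brighter probe. The log2 signal was 0.61 and 1.07 in Cyp3a-/- livers, against 1.12 and 0.77 in wild type livers. Cyp3a-/- 1 was lowest and wild type 1 highest. The difference was -0.11 ± 0.24 (log2, SE; adjusted p = 0.900), with a 95% confidence interval of the fold from 0.608 to 1.41. It turned positive without Cyp3a-/- 1 (0.12) and without wild type 1 (0.066). The dimmer Arnt probe had -2.80 and -2.67 in Cyp3a-/- livers, against -2.59 and -2.17 in wild type livers. These did not overlap, at a difference of -0.35 ± 0.22 (adjusted p = 0.633 over all kept probes).

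Tiparp, an AhR-induced enzyme that attaches ADP-ribose to the receptor and dampens it, had the smallest genotype difference of the 6. Its brighter probe had log2 signals of -1.23 and -1.12 in Cyp3a-/- livers, against -1.37 and -1.12 in wild type livers. The difference was 0.07 ± 0.19 (log2, SE; adjusted p = 0.920), with a 95% confidence interval of the fold from 0.757 to 1.45, and it turned to -0.055 without wild type 1. The second probe gave 0.08 ± 0.18, with the livers between -1.74 and -1.57.

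Ahrr, which competes with AhR for ARNT and is itself an AhR target, was below background in most livers. One probe had processed intensities of 5.06 and 17.3 in Cyp3a-/- livers, against 8.09 and 7.81 in wild type livers, and was well above background in Cyp3a-/- 2 alone. The 3 readings below the background call have no order. The other probe read 2.79 and 2.83 in Cyp3a-/- livers and at most 3.11 in wild type livers, below background throughout.

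**Figure D3:**
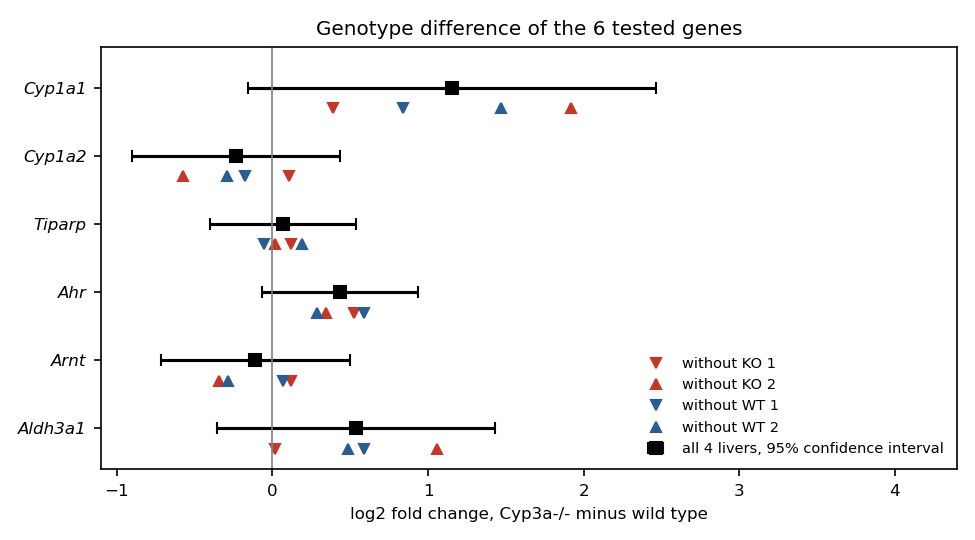
Log2 fold change, Cyp3a-/- minus wild type (horizontal axis), of the 6 tested genes. Squares with bars are the fit to all 4 livers with its 95% confidence interval, and triangles are fits without 1 liver; every interval includes 0, and leaving out a Cyp3a-/- liver moves Cyp1a1 between 0.39 and 1.92.

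For Cyp1a1 and Cyp1a2 the genes with the most similar course over the 4 arrays were sought among 12517 other named genes, by the root mean square difference of log2 values centred on each gene's mean. Nearest to Cyp1a1 were the protocadherin gene Pcdha8 (0.10), the histone gene H2bfm (0.16) and the olfactory receptor gene Olfr1466 (0.17), all also highest in Cyp3a-/- 1. Pcdha8 was as dim as Cyp1a1, with log2 signals of -2.40 and -4.17 in Cyp3a-/- livers and -4.65 and -4.04 in wild type livers. Like Cyp1a1 it was well above background on 3 of the 4 arrays. Nearest to Cyp1a2 were the cyclin gene Ccnl2 (0.0075), the phosphatase subunit gene Ppp4c (0.023) and Msantd2 (0.023). With 4 arrays many genes share any given course, and these are descriptions only.

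Other genes that AhR ligands are known to raise in mouse liver gave no call either. Of 20 listed, 13 were measured, and 0 of 13 passed limma's threshold in either direction (0 at an unadjusted p under 0.05), with 6 above 0, 7 below and a median log2 fold change of -0.01. The largest values were those of Htatip2 at -0.60 ± 0.28 (adjusted p = 0.565), the glutathione transferase gene Gsta2 at 0.56 ± 0.31 (adjusted p = 0.604) and Tnfaip2 at -0.51 ± 0.21 (adjusted p = 0.518). Gsta2 had log2 signals of 5.87 and 5.06 in Cyp3a-/- livers, against 4.79 and 5.03 in wild type livers, and like Cyp1a1 was highest in Cyp3a-/- 1. Of the 13 genes 5 were higher in Cyp3a-/- 1 than in Cyp3a-/- 2 (median difference -0.08), again without a share over all features beside the count. The quinone reductase gene Nqo1, a classic member of the battery named here after its values were seen, had -2.27 and -1.71 in Cyp3a-/- livers, against -1.89 and -1.26 in wild type livers. On Nqo1 Cyp3a-/- 1 was thus the lowest liver. Ugt1a6a and Ugt1a6b are close copies, so their probes may share targets.

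The proteins that hold and assist the receptor were even between genotypes. Of 12 genes of its cytosolic complex and its coactivators, 10 were measured and 0 called by limma (0 at an unadjusted p under 0.05; median 0.03). The corepressor gene Nrip1 stood at -0.41 ± 0.35 and the coactivator gene Ncoa2 at 0.29 ± 0.18. Among the other bHLH-PAS genes 9 of 15 were measured and 0 called (1 at an unadjusted p under 0.05; median 0.08). The clock gene Per1 stood at 0.70 ± 0.35 and Per2 at 0.35 ± 0.33. Hif3a, below background in both Cyp3a-/- livers, passed the filter only through the wild type livers, where its log2 signal was -3.95 and -4.01. It was the 1 gene at an unadjusted p under 0.05, and limma did not call it (adjusted p = 0.346). The mean wild type signal of Hif3a stood 1.57-fold above the floor taken for the Cyp3a-/- livers. That value leaves out the spread between livers, and the fitted log2 difference had a confidence interval of -1.13 to -0.20. No minimum fold is therefore given for Hif3a.

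ARNT also serves the hypoxia factors, and the tryptophan enzymes make AhR ligands. Of 14 hypoxia targets 13 were measured and 0 called by limma (1 at an unadjusted p under 0.05; median -0.08), with the HIF hydroxylase gene Egln3 at -0.59 ± 0.21 (adjusted p = 0.450), Ankrd37 at -0.50 ± 0.31 and the angiogenic factor Vegfa at -0.42 ± 0.20. Of 11 genes from tryptophan to kynurenine and beyond, 9 were measured and 0 called (1 at an unadjusted p under 0.05; median 0.22). Acmsd, which diverts the pathway from NAD synthesis, stood at 0.53 ± 0.19 (adjusted p = 0.453), with 0.40 and 0.61 in Cyp3a-/- livers against 0.04 and -0.08 in wild type livers. The formamidase gene Afmid stood at 0.49 ± 0.24 and Tdo2, the first enzyme of the pathway in liver, at 0.29 ± 0.27.

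**Figure D4:**
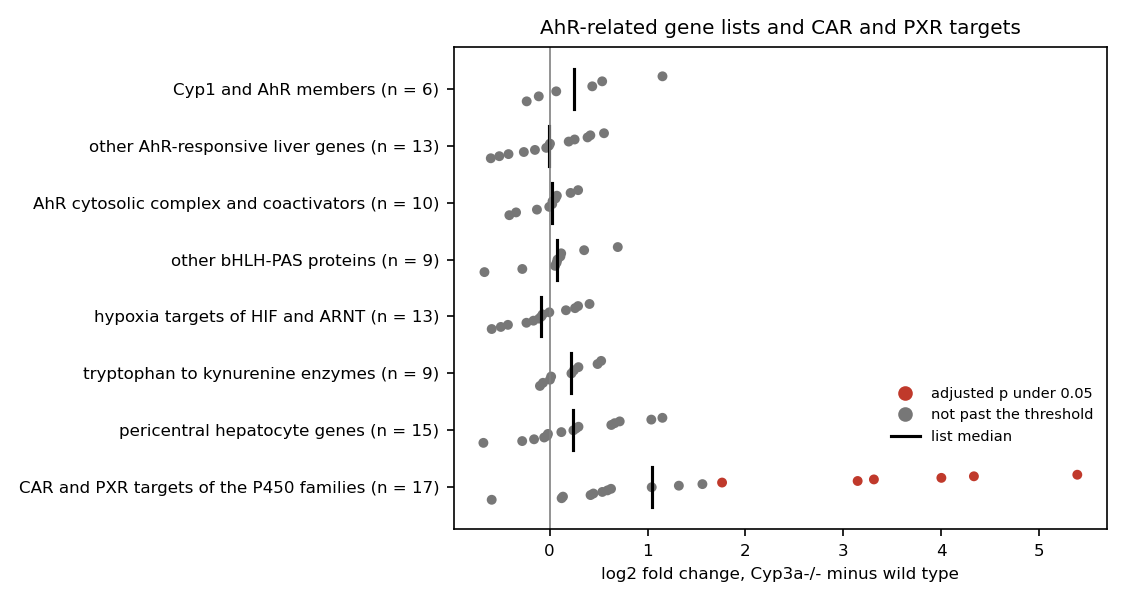
Log2 fold change, Cyp3a-/- minus wild type (horizontal axis), of the 6 tested genes and of every measured gene in the AhR-related lists, the pericentral list and the CAR and PXR list, with 1 point per gene and a bar at each list's median. Red points passed an adjusted p of 0.05; they lie in the CAR and PXR list alone.

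Targets of the drug receptors CAR and PXR, whose activators also raise some Cyp1a transcripts in mouse liver, differed in the same arrays. Of 17 measured, 6 rose, 0 fell and 11 did not pass limma's threshold, where 0.178% of all features rose, and the median log2 fold change was 1.04. Cyp2b10, the main CAR target, had 5.91 and 5.48 in Cyp3a-/- livers, against 1.48 and 1.24 in wild type livers (4.33 ± 0.23, adjusted p = 0.0040). Cyp2c55 rose by 5.39 ± 0.34 (adjusted p = 0.0086). Cyp2b9 was well above background in 1 of the 2 wild type livers, so like Cyp1a1 it passed the filter only through the Cyp3a-/- livers. It had 0.19 and -0.80 in Cyp3a-/- livers, against -4.20 and -4.41 in wild type livers (adjusted p = 0.023). The aldo-keto reductase gene Akr1b7 rose by 3.31 ± 0.32, the uptake transporter gene Slco1a4 by 3.15 ± 0.23 and the carboxylesterase gene Ces2a by 1.76 ± 0.18. Cyp2b10, Cyp2c55, Cyp2b9 and Akr1b7 were higher in Cyp3a-/- 1 than in Cyp3a-/- 2, and Slco1a4 and Ces2a were lower. Leaving out wild type 1 or 2 left 0 of the 17 called, while the list's median was 1.05 and 1.04. With slide as a random block 4 of the 17 were called at an unchanged median of 1.04; no slide held both genotypes. This list overlaps with results already known for these arrays and is no independent evidence.

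Of 9 Cyp3a genes 7 were measured, and these 7 fell. Markers of other liver cell types gave no call by limma in any list. The counts were 0 of 9 for sinusoidal endothelium (median 0.01; Stab1 at -0.35 and Kdr at 0.31), 0 of 9 for Kupffer cells (median -0.12; Marco at -1.47 and Clec4f at -0.32), 0 of 5 for cholangiocytes (median 0.06; Sox9 at 0.36 and Krt19 at -0.33), 0 of 7 for lymphocytes (median -0.34; Gzma at -0.92) and 0 of 4 for erythroid cells (median -0.59; Hba-a1 at -1.07 and Hbb-b1 at -0.90). At an unadjusted p under 0.05 these counts were 0, 1, 0, 3 and 2. The stellate genes with the largest values were Col1a1 at -0.54 and Col1a2 at -0.46. Of 9 hepatocyte markers 0 were called (0 at an unadjusted p under 0.05; median 0.10), with Tat at 0.20. The fibrinogen gene Fgb stood at -0.91, with 7.13 and 8.98 in Cyp3a-/- livers against 8.95 and 8.98 in wild type livers, so that Cyp3a-/- 1 stood apart there too. The part of these markers in the values of Cyp1a1, Cyp1a2 and Aldh3a1 was not tested.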

How the data were processed

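The deposited files are scanner output of 4 arrays, whose intensity values came from Agilent Feature Extraction (version 11.5.1.1 in the submitters' processing notes). Statistics of background subtraction and of spatial and multiplicative detrending stand in the file headers. The software's flags were taken as they are. A further deposited table holds log2 values whose scale, centring and direction are not stated. All 39417 of its probes had median 0 over the arrays (within 0.002). Its columns and the scanner values, scaled to the 75th percentile and centred per probe, correlated at 1.00 array by array. Column medians are given in the closing section. Unmapped per-sample columns numbered 0.

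Control spots and 113 to 148 deviating spots per array were left out, and log2 processed intensity was taken minus the array's 75th percentile. Probes were named through RefSeq accessions (GRCm38.p6), which named 28019 with 1 symbol, 0 with several and left 11410 unnamed. The array's design build is older, so the table gave names and promoters only. Of 21508 probes kept, the brightest per gene stood for it. The genotype fit used limma (version 3.58.1, under R 4.3.3) with lmFit and eBayes (2-sided, Benjamini-Hochberg over 17406 features; 2 residual and 3.54 prior degrees of freedom), and the fit was tested on simulated data. P-values set the genotype difference against the spread of livers within a genotype, with each gene's variance drawn towards that of all features. Liver and slide are not separated in that spread. A bound for a gene below background in a genotype set the brighter mean against a floor: on each array, the dimmest signal called above background or the probe's own value, whichever was higher.

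The 8 genes and all lists were chosen with earlier results of these data known. The lists held other AhR-responsive genes, the receptor's complex, bHLH-PAS genes, hypoxia targets, tryptophan enzymes, CAR and PXR targets, pericentral and periportal genes, Cyp3a genes, and markers of hepatocytes, stellate cells, endothelium, Kupffer cells, cholangiocytes, lymphocytes and erythroid cells. Named were all genes of a list past the threshold, otherwise the 3 largest changes (2 for markers), and the 3 genes most like Cyp1a1 and Cyp1a2; some genes this rule selects are not reported here. Alternatives were other background, scaling, filter and probe choices, the authors' table, slide and replicate blocks and leaving out each array. The normexp alternative used median spot signals, the column these files hold, and an offset of 50.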

Additional observations from a re-analysis of the deposited data

How the results depend on the processing

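Over all features 48 genes or other transcripts were called, 31 higher and 17 lower. That count was 659 with median scaling (388 higher, 271 lower), where every gene was given the same variance, 13 without a filter on dim probes and 9 with a filter on all 4 arrays, and between 7 (without wild type 2; 8 without wild type 1) and 506 (without Cyp3a-/- 2; 94 without Cyp3a-/- 1) when 1 liver was left out. Of the 8 genes, 0 were called in the fit as reported, 1 (Cyp1a1) with median scaling, and between 0 and 1 when 1 liver was left out, the 1 being Cyp1a1 without Cyp3a-/- 2. The other lists held 13 called genes, against 21 with median scaling, 8 without a filter, 4 with the filter on all 4 arrays and between 6 (without either wild type liver) and 17 (without Cyp3a-/- 2) when 1 liver was left out. Of the 17 CAR and PXR targets, 6 were called as reported, 1 without a filter, 3 with the filter on all 4 arrays, 4 each with normexp, quantile normalization and slide as a random block, 5 with the replicate block, 9 with median scaling and between 0 and 7 when 1 liver was left out. A genotype left with 1 liver was assumed to vary like the other. The cause of these moves was not tested beyond the number of genes or arrays in each fit.

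Leaving out 1 liver reversed Cyp1a2 without Cyp3a-/- 1, Arnt without Cyp3a-/- 1 or wild type 1 (0.066), and Tiparp without wild type 1. The ranges were -0.57 to 0.11 for Cyp1a2, -0.34 to 0.12 for Arnt and -0.055 to 0.19 for Tiparp, and none of the 3 was called in any setting run. Cyp1a1 kept its direction in every setting that tested it, between 0.38 and 1.92. It could not be tested with the filter on all 4 arrays. Ahr lay between 0.28 and 0.59 and Aldh3a1 between 0.01 and 1.06.

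With the replicate number as a block 58 features were called, 0 of the 8 genes among them. The labels do not say that a number marks a shared experiment, and same-numbered livers deviated with a correlation of -0.10 over features. With slide as a random block, chosen after seeing the data because limma's own estimate needs more arrays, 33 features were called. The median log2 fold change over all features stayed between -0.02 and 0.04 in all settings. Column medians of the authors' table were -0.02 and 0.02 for the Cyp3a-/- arrays and 0.06 and -0.07 for the wild type arrays, and its fit called the same number, 48.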
